A study of Rattus norvegicus with 36 samples.

Results

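Hepatic gene expression at the 2 highest doses of a 5-day study of TBBPA-DBPE, a brominated flame retardant, was compared directly: 6 rats given 943 mg/kg against 6 rats given 94.3 mg/kg. The 12 arrays are those whose titles carry these doses, out of 36 arrays in the series, and no vehicle array entered the fit. All animals were male Harlan Sprague Dawley rats, 7 weeks old at the start, that were gavaged daily in corn oil and necropsied 1 day after the last dose. Both groups were therefore dosed, and the difference between them describes the last step of the dose series and not an effect against untreated liver. RNA came from the left liver lobe, with 1 single-colour Affymetrix array per animal. All differences below are log2 values of 943 minus 94.3 mg/kg with the standard error of the limma fit, and a log2 difference of 1 is a doubling.

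The liver is the main site of xenobiotic metabolism, and it adjusts its cytochrome P450 enzymes, its protein synthesis and its lipid synthesis to chemical and nutritional load. When amino acids run short or proteins misfold, the transcription factor ATF4 raises genes for serine and asparagine synthesis, amino acid import and the aminoacyl-tRNA synthetases, which charge transfer RNAs with their amino acids. Ribosome biogenesis, the making of ribosomal RNA and its assembly with proteins in the nucleolus, is the costliest part of cell growth, and its genes are commonly driven together by MYC, a factor that binds E boxes.

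The tissue label was borne out by its markers: the mean level of 13 hepatocyte markers was 12.54 at 94.3 mg/kg and 12.49 at 943 mg/kg, while markers of adjacent pancreas (10 measured, means 4.12 and 4.10) and of fat and muscle (11 measured, means 4.33 and 4.32) lay below every array median. Array medians lay between 4.59 and 4.65 among the 12 arrays, and any 2 of them correlated between 0.992 and 0.995 over the probe sets. The median correlation was 0.994 both within and between the dose groups. The spread between animals was alike at both doses, with a median SD of 0.135 at 94.3 mg/kg and 0.137 at 943 mg/kg. The labels number the animals but do not tie an animal of one dose to one of the other. In a bulk sample such as this, fewer cells of a type and less RNA per cell cannot be told apart.

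No gene passed the test between 943 and 94.3 mg/kg. Of 31042 probe sets, 0 had a limma adjusted p under 0.05 (0% of those tested), and the smallest adjusted p was 0.688. At an unadjusted p under 0.05, 734 probe sets were higher at 943 mg/kg (2.36%) and 951 were lower (3.06%). An ordinary linear model without moderation also gave 0. The 2 groups of animals did not overlap for 27 probe sets that were higher at 943 mg/kg (0.087%) and for 62 that were lower (0.2%). A 2-fold change lay outside the 95% interval for 99.6% of the probe sets, and a 1.5-fold change for 98.2%, and a measured difference of 2-fold or more was seen for 2 higher and 5 lower probe sets. The median SE was 0.0805, and the 12 arrays limit the precision. Leaving out replicate 1 of the 94.3 mg/kg group gave the smallest adjusted p of any alternative, 0.0684, again with 0 calls. No gene named below passed, so every value that follows is a description of these 12 animals.

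**Figure D1:**
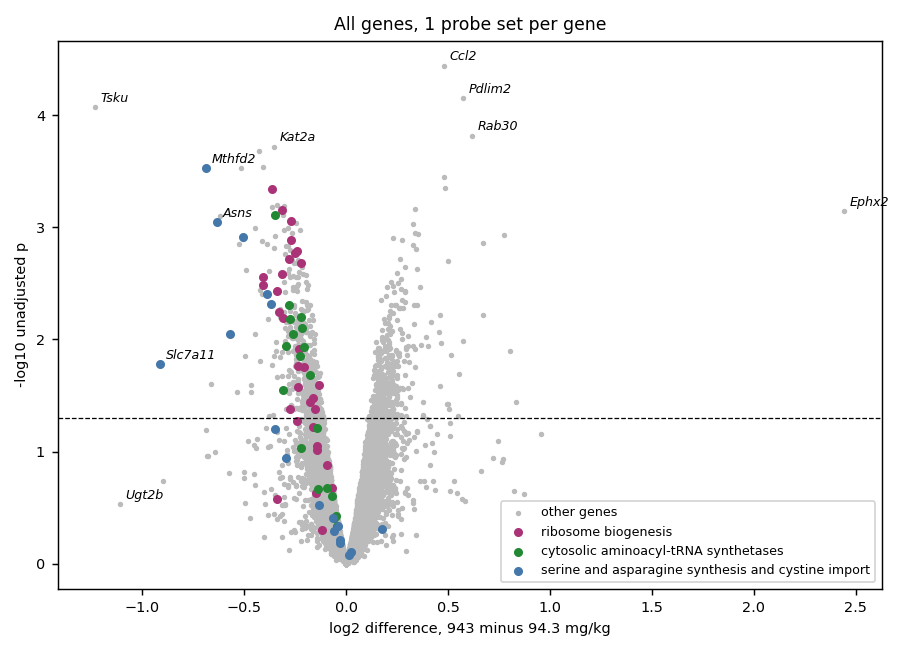
The log2 difference (943 minus 94.3 mg/kg, x axis) is plotted against -log10 of the unadjusted p (y axis) for 14217 genes, 1 probe set per gene, with 3 gene lists in colour and the dashed line at an unadjusted p of 0.05. All 32 ribosome biogenesis genes and all 19 cytosolic synthetases lie left of 0, Ephx2 lies alone at 2.44, and 0 genes passed after adjustment. The lists were chosen with earlier results of these data known.

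Over 1 probe set per gene, 374 of 14217 genes were higher at 943 mg/kg at an unadjusted p under 0.05 (2.63%) and 504 were lower (3.55%), and the groups did not overlap for 19 higher genes (0.134%) and 36 lower genes (0.253%). Among the lower genes with the smallest p was Tsku, which encodes tsukushi, a secreted small leucine-rich protein made by the liver. Its levels ran from 8.61 to 9.78 with a median of 9.04 at 94.3 mg/kg, and from 7.16 to 8.54 with a median of 8.06 at 943 mg/kg. All 6 animals given 943 mg/kg lay below every animal given 94.3 mg/kg, and the difference was -1.23 ± 0.23 (2.35-fold, adjusted p = 0.688). The vehicle group, which took no part in the fit, ran from 7.09 to 9.31. That covers the whole 943 mg/kg range and the lower part of the 94.3 mg/kg range.

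Other genes with a small p in the lower direction encode chromatin, RNA and cytoskeletal proteins. Kat2a, a histone acetyltransferase, ran from 5.87 to 6.21 (median 6.06) at 94.3 mg/kg and from 5.55 to 5.87 (median 5.65) at 943 mg/kg, a difference of -0.35 ± 0.072 with no overlap between the groups. The highest animal at 943 mg/kg nearly reached the lowest at 94.3 mg/kg. Baiap2l1, an adaptor of the actin cytoskeleton, ran from 7.53 to 7.74 (median 7.64) and from 7.12 to 7.52 (median 7.31), also without overlap (-0.31 ± 0.071). Sfpq, a paraspeckle protein that acts in splicing and transcription, differed by -0.43 ± 0.088 with 5 of 6 animals at 943 mg/kg below the whole 94.3 mg/kg range. Stbd1, which tethers glycogen to membranes, differed by -0.41 ± 0.087, again with 5 of 6 animals below that range. Limk2, a kinase that regulates actin through cofilin, differed by -0.37 ± 0.086 with 4 of 6 below it. Rrp8, a nucleolar protein, differed by -0.34 ± 0.079 with 5 of 6 below it. All had an adjusted p of 0.688.

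In the other direction, the genes with the smallest p were mostly of low or moderate level. Ccl2, a chemokine that attracts monocytes, ran from 3.55 to 3.99 (median 3.83) at 94.3 mg/kg and from 4.06 to 4.39 (median 4.32) at 943 mg/kg, a difference of 0.48 ± 0.083. Pdlim2, a PDZ and LIM domain protein, ran from 3.44 to 3.96 (median 3.57) and from 3.997 to 4.56 (median 4.17), a difference of 0.57 ± 0.11. The groups did not overlap for either gene. Both lay below every array median in both groups, so the size of these differences is uncertain. Gpx7, an endoplasmic reticulum peroxidase, was brighter and also separated completely. It ran from 6.73 to 6.92 (median 6.77) and from 6.93 to 7.11 (median 7.03), a difference of 0.23 ± 0.058.

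Rab30, a small GTPase of the Golgi, ran from 7.23 to 7.82 (median 7.50) at 94.3 mg/kg and from 7.68 to 8.39 (median 8.23) at 943 mg/kg. It was 0.62 ± 0.12 higher, 5 of 6 animals lay above the whole 94.3 mg/kg range, and its second probe set was 0.33 ± 0.10 higher. Ccng2, an unconventional cyclin linked to growth arrest, ran from 6.98 to 7.50 (median 7.33) and from 7.36 to 8.03 (median 7.80), a difference of 0.48 ± 0.11 with 5 of 6 animals above that range. Mbp, the gene of myelin basic protein, differed by 0.77 ± 0.19 on its brightest probe set, while 2 dimmer probe sets gave 0.07 and 0.04. The remaining genes of this rank were Ighl2 (0.48 ± 0.10), Akr1c3 (0.35 ± 0.089), Calcoco1 (0.34 ± 0.084), Rad9b (0.34 ± 0.079, dimmer than every array median) and Ccdc28a (0.33 ± 0.081), with 3 to 5 of 6 animals above the 94.3 mg/kg range. Calcoco1 is known as a receptor for autophagy of the endoplasmic reticulum and Golgi, and Akr1c3 as an aldo-keto reductase.

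**Figure D2:**
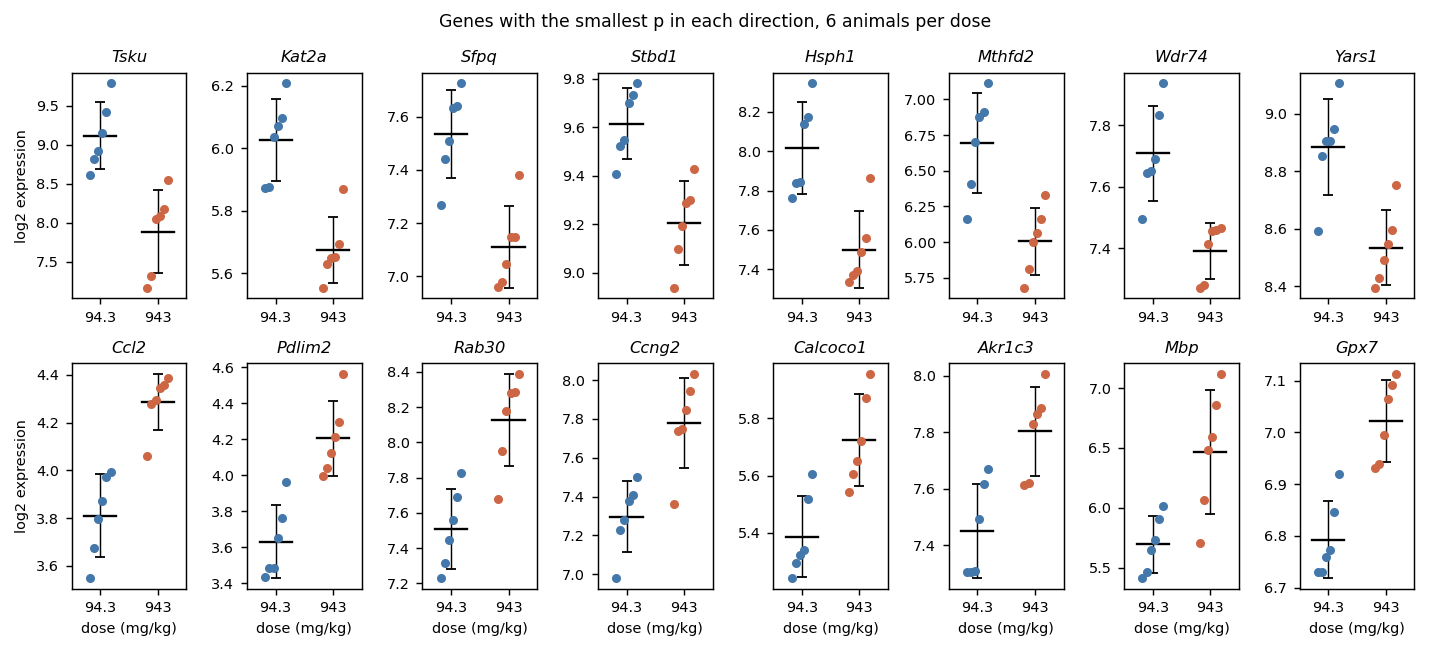
Log2 expression of 16 genes among those with the smallest p (8 lower in the upper row, 8 higher in the lower row) in each of 6 animals at 94.3 mg/kg (blue) and 943 mg/kg (orange), points ordered by value within a dose, with the mean (bar) and SD (whisker). Tsku, Kat2a, Wdr74, Ccl2, Pdlim2 and Gpx7 have no overlap between the doses, while at least 1 animal of the other genes reaches into the other group.

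Genes of ribosome biogenesis were lower at 943 mg/kg throughout the list. Of 33 genes listed, 32 were measured and all 32 were lower, with a median difference of -0.24 beside -0.0008 over all 14217 genes. At an unadjusted p under 0.05, 23 of the 32 were lower, beside 3.55% of all genes, and 0 passed after adjustment. This list and the gene lists that follow were chosen with earlier results of these data known. Their counts beside those of all genes are therefore descriptions and not independent support. The groups did not overlap for 4 of the 32, beside 0.253% of all genes. The 4 were Bop1, Wdr74, Fbl and Nop14, of which Fbl and Nop14 are named after their values were seen. Across the list the difference ran from -0.07 for Rrp12 to -0.41 for Nop58, again named for being the extremes.

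By role, the PeBoW complex, which processes the large subunit's ribosomal RNA, held 3 measured members. Bop1 ran from 7.05 to 7.20 (median 7.10) at 94.3 mg/kg and from 6.58 to 6.93 (median 6.87) at 943 mg/kg, a difference of -0.27 ± 0.065. Wdr12 ran from 6.53 to 7.08 (median 6.93) and from 6.40 to 6.59 (median 6.51), a difference of -0.37 ± 0.082. Bop1 separated completely, whereas for Wdr12 the lowest animal at 94.3 mg/kg, replicate 1, lay among those at 943 mg/kg. Pes1 completed the complex with -0.21 ± 0.078. Wdr74, which acts in maturation of the large subunit, ran from 7.50 to 7.94 (median 7.67) and from 7.27 to 7.47 (median 7.44), a difference of -0.32 ± 0.075 without overlap. Utp4, of the small subunit processome, ran from 7.51 to 7.89 (median 7.70) and from 7.29 to 7.54 (median 7.44), a difference of -0.27 ± 0.069 with 5 of 6 animals below the 94.3 mg/kg range. The box C/D small nucleolar RNP proteins that guide ribosomal RNA methylation differed by -0.22 ± 0.060 (Fbl), -0.31 ± 0.098 (Nop56) and -0.41 ± 0.12 (Nop58). Nop14, another processome protein, differed by -0.24 ± 0.063. The RNA polymerase I subunit Polr1b differed by -0.28 ± 0.075. Myc itself differed by -0.34 ± 0.30 (unadjusted p = 0.266), a spread too wide to show a difference of this size.

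The promoters of these genes were searched for the E box CACGTG, on both strands, in the RefSeq windows (GRCr8) from 250 bases before to 50 bases after the gene start. It was present in 10 of the 28 list members that have a promoter in the table, in 8.92% of 11733 promoters of measured genes and in 6.65% of 27457 promoters in all. Among synthetase promoters 5 of 17 held it, and among those of the serine and asparagine list 4 of 16. Integrated stress regulators held it in 3 of 18, heat shock chaperones in 1 of 14 and NRF2 and glutathione genes in 1 of 18. For the mevalonate arm the count was 0 of 6 and for the later cholesterol enzymes 1 of 9. In 6 of the 10 ribosome biogenesis promoters with an E box a match lies wholly before the start. These 6 are shown with up to 20 bases on either side. Capitals mark the E box, and each line is written 5′ to 3′ on the gene's strand. The match is a description of the sequence and no evidence of binding here.
Utp4 (chr19:51702196-51702240, + strand): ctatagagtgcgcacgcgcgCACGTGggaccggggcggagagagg
Pes1 (chr14:83074276-83074321, + strand): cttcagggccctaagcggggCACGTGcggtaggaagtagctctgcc
Dkc1 (chrX:157751447-157751492, + strand): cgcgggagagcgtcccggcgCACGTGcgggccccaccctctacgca
Mybbp1a (chr10:57555282-57555327, + strand): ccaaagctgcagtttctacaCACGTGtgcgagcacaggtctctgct
Utp20 (chr7:25102951-25102996, - strand): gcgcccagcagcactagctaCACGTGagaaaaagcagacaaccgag
Gnl3 (chr16:6219783-6219827, - strand): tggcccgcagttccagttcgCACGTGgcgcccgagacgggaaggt
In the remaining 4 genes, which include Fbl and Nop2, the match lies after the start. The differences of the genes shown were -0.27 (Utp4), -0.21 (Pes1), -0.14 (Dkc1), -0.16 (Mybbp1a), -0.27 (Utp20) and -0.15 (Gnl3), which is within the range of the whole list.

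The cytosolic aminoacyl-tRNA synthetases were likewise lower at 943 mg/kg without exception among those measured. Of 20 listed, 19 were measured, all 19 were lower, and 11 had an unadjusted p under 0.05, beside 3.55% of all genes. The median difference was -0.22, and 0 passed after adjustment. Yars1, the tyrosyl enzyme, ran from 8.59 to 9.11 (median 8.91) at 94.3 mg/kg and from 8.39 to 8.75 (median 8.52) at 943 mg/kg, a difference of -0.35 ± 0.084. For 4 of 6 animals it lay below the 94.3 mg/kg range. Gars1, the glycyl enzyme, ran from 9.21 to 9.69 (median 9.52) and from 9.02 to 9.45 (median 9.21), a difference of -0.28 ± 0.086 that its second probe set gave as -0.31. Lars1, the leucyl enzyme, differed by -0.22 ± 0.070 and Rars1, the arginyl enzyme, by -0.28 ± 0.088. The smallest difference was -0.04 for Kars1, named as the other end of the range. Aimp1, a scaffold of the multi-synthetase complex that was not on the list and was looked at after its values were seen, differed by -0.28 ± 0.070 without overlap.

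The core of the amino acid response element, the site to which ATF4 binds with C/EBP factors, was searched as TGATGNAA on both strands in the same promoters. It was present in 7 of 17 synthetase promoters, in 2.21% of the 11733 promoters of measured genes and in 3.82% of all 27457. Integrated stress regulators held it in 5 of 18, and their differences went both ways. These were 0.82 (Fgf21), 0.54 (Chac1), -0.30 (Trib3), -0.13 (Herpud1) and -0.10 (Nupr1). The 5 synthetases with a match before the gene start are shown in the same way, with the core in capitals (TTGCATCA is its reverse complement). All 5 lay lower at 943 mg/kg, as did every other measured synthetase. The matches lie close to the start: their first letters are 112, 14, 27, 17 and 24 bases before it in the order shown.
Aars1 (chr19:55908350-55908397, + strand): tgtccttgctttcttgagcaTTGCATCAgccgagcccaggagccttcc
Nars1 (chr18:60275783-60275816, - strand): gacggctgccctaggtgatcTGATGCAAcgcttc
Tars1 (chr2:62114803-62114849, - strand): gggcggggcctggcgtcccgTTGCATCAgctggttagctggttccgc
Mars1 (chr7:65023754-65023790, - strand): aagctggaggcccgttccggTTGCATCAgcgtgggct
Iars1 (chr17:15193653-15193696, - strand): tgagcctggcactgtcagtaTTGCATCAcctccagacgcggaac
Yars1 and Cars1 hold the core after the start. The differences of those shown were -0.22 (Aars1), -0.30 (Nars1), -0.22 (Tars1), -0.18 (Mars1) and -0.31 (Iars1). Among synthetases without a match in their promoter window, Sars1, Lars1 and Farsb differed by -0.26, -0.22 and -0.205. Vars1 and Eprs1 differed by -0.14 each, Hars1 by -0.10, Wars1 by -0.06, Qars1 by -0.05 and Kars1 by -0.04. Gars1, Rars1 and Farsa, for which no match was found and not all of which have a promoter in the table, differed by -0.28, -0.28 and -0.07. A relation between the core and the size of the difference was not tested.

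A pair of short, common motifs was searched in the same promoters, also on both strands: the core of the dioxin response element, spelled GCGTG, and the CCAAT box. The dioxin core was present in 45.8% of the 11733 promoters of measured genes and the box in 37.3%. Among ribosome biogenesis promoters 25 of 28 held the dioxin core and 2 of 28 the box, the latter in Nop56 and Rrp9. Among synthetase promoters the counts were 11 and 10 of 17, and among heat shock chaperones, whose values follow, 7 and 7 of 14. For the genes of serine and asparagine synthesis and import they were 8 and 8 of 16, for NRF2 and glutathione genes 8 and 3 of 18, and for integrated stress regulators 12 and 8 of 18. The mevalonate arm held them in 4 and 5 of 6 promoters and the later cholesterol enzymes in 5 and 7 of 9.

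The list of serine and asparagine synthesis, mitochondrial folate and amino acid import held larger single differences than the ribosome biogenesis and synthetase lists. Its median was similar to theirs. Of 19 listed, 18 were measured and 15 were lower, 7 of them at an unadjusted p under 0.05 beside 3.55% of all genes, with a median of -0.22 and 0 adjusted calls. Asns, asparagine synthetase, ran from 7.06 to 8.15 (median 7.77) at 94.3 mg/kg and from 6.87 to 7.36 (median 7.10) at 943 mg/kg, a difference of -0.63 ± 0.15. Mthfd2, a mitochondrial folate enzyme, ran from 6.16 to 7.11 (median 6.79) and from 5.68 to 6.33 (median 6.03), a difference of -0.69 ± 0.15. For both genes the groups overlap through 1 animal at 94.3 mg/kg, replicate 1, at 7.06 for Asns and 6.16 for Mthfd2.

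The 3 enzymes that make serine from a glycolytic intermediate all lay lower, with differences of -0.51 ± 0.13 (Phgdh), -0.57 ± 0.19 (Psat1) and -0.37 ± 0.11 (Psph). Phgdh ran from 8.19 to 8.92 (median 8.80) at 94.3 mg/kg and from 7.93 to 8.31 (median 8.18) at 943 mg/kg, with 3 of 6 animals below the 94.3 mg/kg range. Cystine enters through Slc7a11 and its partner Slc3a2. Slc3a2 ran from 9.42 to 9.98 (median 9.78) and from 9.07 to 9.73 (median 9.38), a difference of -0.39 ± 0.11. Slc7a11 differed by -0.91 ± 0.34, but its levels at 94.3 mg/kg spread from 3.44 to 6.26, both means lay near or below the array medians, and without replicate 5 of that group the difference was -0.59.

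The remaining members did not share this size. Aldh18a1, of proline synthesis, differed by -0.35 ± 0.18 and the neutral amino acid carrier Slc1a4 by -0.30 ± 0.18. The cationic carrier Slc7a1 differed by -0.13 ± 0.12 on its brightest probe set, with -0.67 and 0.03 on its others. Slc7a5, Mthfd1l, Shmt1, Shmt2 and Cbs lay between -0.07 and -0.03, and Slc1a5, Cth and Slc38a2 at 0.02, 0.02 and 0.18. The core TGATGNAA was found in the promoter windows of 2 of 16 members, Slc1a4 and Slc7a1. Regulators of the integrated stress response were split, with 10 of 20 lower and a median of -0.03. Of the 20, 2 were lower and 0 higher at an unadjusted p under 0.05, beside 3.55% and 2.63% of all genes. The 2 were Atf5, a transcription factor of the same family as ATF4 (-0.30 ± 0.087), and Eif4ebp1, a repressor of translation initiation (-0.19 ± 0.068). Fgf21, a hepatic hormone raised by fasting and stress, lay at the opposite end (0.82 ± 0.65).

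**Figure D3:**
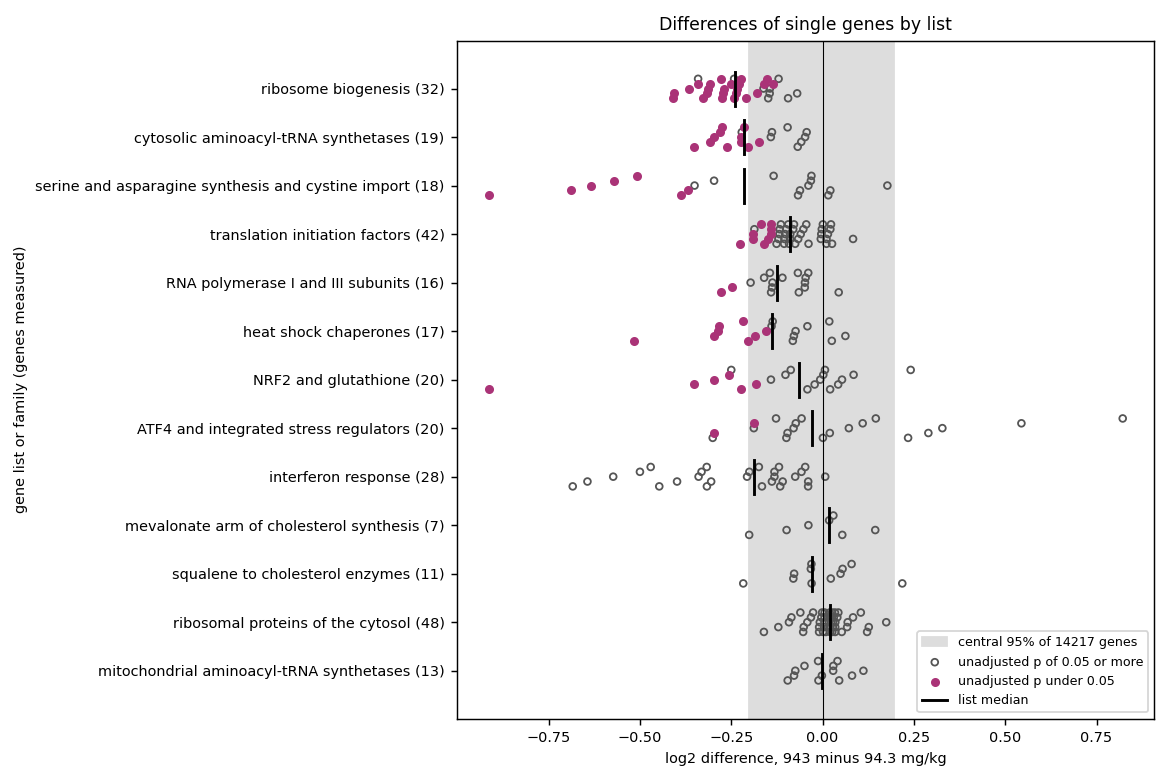
Log2 differences (943 minus 94.3 mg/kg) of the measured genes of 13 lists and families, 1 point per gene, filled where the unadjusted p is under 0.05, with the list median (bar) and the central 95% of all 14217 genes (grey, -0.20 to 0.20). Ribosome biogenesis genes and cytosolic synthetases lie wholly left of 0 with medians of -0.24 and -0.22, while cytosolic ribosomal proteins (0.02) and mitochondrial synthetases (-0.002) centre near 0. The lists were chosen with earlier results of these data known, and the families were added after the list results were seen.

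Related families, added after the list results were seen, gave different medians for the machinery that makes ribosomes and for the ribosome itself. Of 48 cytosolic ribosomal protein genes, 15 were lower, 0 at an unadjusted p under 0.05 in either direction, with a median of 0.02. Mitochondrial ribosomal proteins (73 genes, median 0.007) and mitochondrial aminoacyl-tRNA synthetases (13 genes, median -0.002) also centred near 0. Of 42 translation initiation factors, 34 were lower and 9 of them at an unadjusted p under 0.05 beside 3.55% of all genes, with a median of -0.09. Their count was 3 without replicate 4 of the 943 mg/kg group. The doses did not overlap for 2 of the 42, beside 0.253% of all genes. These were Eif4a1, the RNA helicase of cap-dependent initiation (-0.23 ± 0.056), and Eif3b, a scaffold of the eIF3 complex (-0.19 ± 0.056), named after their values were seen. Of 16 subunits of RNA polymerases I and III, which transcribe ribosomal and transfer RNA, 15 were lower, 2 of them at an unadjusted p under 0.05 beside the same 3.55%, with a median of -0.12. That count was 6 without replicate 1 of the 94.3 mg/kg group, where the count over all probe sets also rose, from 1685 to 2070. These differences between families were not tested.

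Heat shock chaperones were lower in 14 of 17 measured genes, 8 of them at an unadjusted p under 0.05 beside 3.55% of all genes, with a median of -0.14. Hsph1, a large chaperone of the HSP110 family, ran from 7.76 to 8.34 (median 7.99) at 94.3 mg/kg and from 7.33 to 7.86 (median 7.44) at 943 mg/kg. It differed by -0.52 ± 0.11, and its second probe set gave -0.50. Only 1 animal at 943 mg/kg reached into the 94.3 mg/kg range. The co-chaperones Chordc1 and Stip1 differed by -0.30 ± 0.079 and -0.29 ± 0.079, and the small heat shock protein Hspb8 by -0.20 ± 0.066. Without replicate 3 of the 94.3 mg/kg group 5 members had an unadjusted p under 0.05 and the median was -0.10. Endoplasmic reticulum chaperones centred near 0, with 9 of 17 lower, a median of -0.02 and 0 at an unadjusted p under 0.05.

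Targets of NRF2, the factor that answers oxidative and electrophilic stress, and glutathione genes were lower in 13 of 20, with a median of -0.06 and 6 of them at an unadjusted p under 0.05 beside 3.55% of all genes. Akr7a3, an aldehyde reductase, ran from 10.23 to 10.87 (median 10.62) at 94.3 mg/kg and from 10.16 to 10.32 (median 10.23) at 943 mg/kg, a difference of -0.35 ± 0.089. Hmox1, heme oxygenase, ran from 7.90 to 8.22 (median 8.05) and from 7.61 to 7.92 (median 7.74), a difference of -0.30 ± 0.077. For Hmox1 5 of 6 animals at 943 mg/kg lay below the 94.3 mg/kg range, and for Akr7a3 3 of 6. Srxn1, sulfiredoxin, differed by -0.26 ± 0.090 and Ephx1, microsomal epoxide hydrolase, by -0.22 ± 0.076. Slc7a11, given above, is counted in this list too.

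Averaged over a list in each animal, the 943 mg/kg group was the tighter one for these genes. The mean level of the heat shock list ran from 8.30 to 8.57 at 94.3 mg/kg and from 8.17 to 8.28 at 943 mg/kg, and that of the NRF2 list from 8.27 to 8.46 and from 8.18 to 8.26, so that for both lists all 6 animals at 943 mg/kg lay below all at 94.3 mg/kg. The serine list mean ran from 7.11 to 7.51 and from 6.99 to 7.15, with 5 of 6 below. Ribosome biogenesis ran from 7.02 to 7.36 and from 6.90 to 7.03, with 4 of 6 below. The synthetases ran from 8.21 to 8.57 and from 8.15 to 8.34, with 3 of 6 below. In the last 3 lists the lowest animal at 94.3 mg/kg was replicate 1.

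The 4 groups outside the comparison place these levels, with no test. For ribosome biogenesis the group means of vehicle and the 3 lower doses lay between 7.01 and 7.10, against 7.20 at 94.3 mg/kg and 6.96 at 943 mg/kg. For the synthetases they lay between 8.25 and 8.29, against 8.41 and 8.22. For heat shock chaperones they lay between 8.27 and 8.30, against 8.37 and 8.22. The 94.3 mg/kg mean was therefore the highest and the 943 mg/kg mean the lowest of the 6 group means in these 3 lists. In the same order the vehicle animals ran from 6.87 to 7.08, 8.19 to 8.40 and 8.18 to 8.44. All 3 of the 943 mg/kg means lay within these vehicle ranges. The 94.3 mg/kg means lay above them for ribosome biogenesis and the synthetases, and within for heat shock chaperones. For the serine list the other means spanned 6.98 to 7.26, so the 943 mg/kg mean of 7.06 lay among them and the 94.3 mg/kg mean of 7.33 above them.

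**Figure D4:**
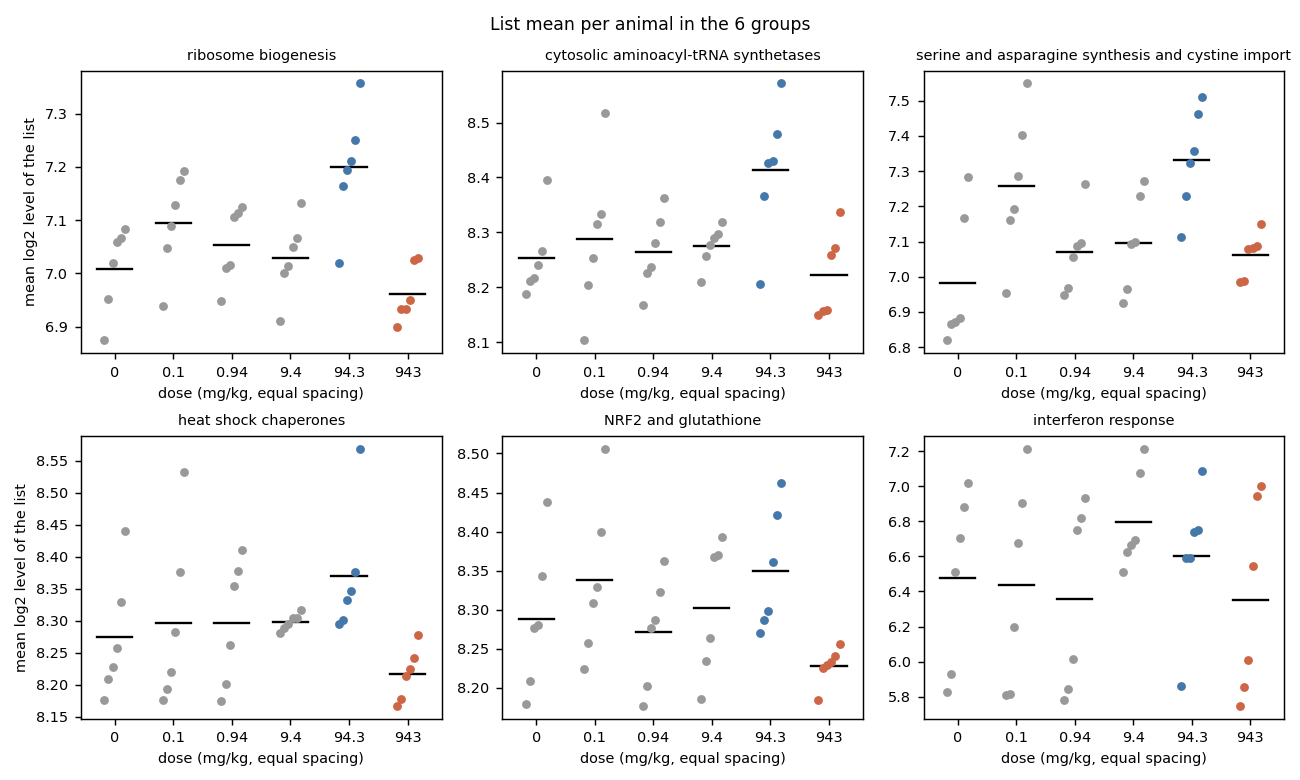
Mean log2 level of 6 gene lists in each of 36 animals (y axis) by dose in mg/kg (x axis, equally spaced, 0 is vehicle), points ordered by value within a dose, with group means as bars and the compared doses in blue (94.3) and orange (943). The heat shock and NRF2 means of all 6 animals at 943 mg/kg lie below those of all 6 at 94.3 mg/kg, while the interferon means of both doses span about the same range. The heat shock and NRF2 lists are named for this after their values were seen, and the NRF2 mean includes Slc7a11.

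Cholesterol synthesis, which is controlled by the SREBP2 transcription factor, gave no difference at an unadjusted p under 0.05 between these doses. Of 7 measured enzymes of the mevalonate arm 4 were higher and 3 lower (median 0.02), and of 11 enzymes from squalene to cholesterol 5 were higher and 6 lower (median -0.03), with 0 of 18 at an unadjusted p under 0.05. The animals of both groups spread widely and alike: Sqle, squalene epoxidase, ran from 8.24 to 9.92 at 94.3 mg/kg and from 7.90 to 9.72 at 943 mg/kg, a difference of -0.22 ± 0.28. Mvd, mevalonate diphosphate decarboxylase, differed by -0.20 ± 0.28 and Tm7sf2, a sterol reductase, by 0.22 ± 0.17. Pmvk differed by 0.14 ± 0.16 and Idi1 by -0.10 ± 0.24. The other 13 enzymes lay between -0.08 and 0.08. Their intervals remain wide: for Sqle the 95% interval was -0.82 to 0.39. Ggps1, Mvk and Sc5d each had another probe set of the opposite sign.

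Both list means also overlapped almost wholly, at 8.60 to 9.50 and 8.48 to 9.49 for the mevalonate arm and 9.81 to 10.76 and 9.78 to 10.76 for the later enzymes. The group means at 94.3 and 943 mg/kg were 9.02 and 9.01 for the mevalonate arm and 10.30 and 10.29 for the later enzymes. Those of vehicle and the 3 lower doses lay below both, at 8.63 to 8.82 and 9.90 to 10.09, with no test. Srebf1, which encodes the SREBP1 factor of fatty acid synthesis, ran from 9.35 to 9.83 (median 9.51) at 94.3 mg/kg and from 8.67 to 9.50 (median 9.10) at 943 mg/kg. The difference was -0.49 ± 0.14, its second probe set gave -0.44, and 5 of 6 animals lay below the 94.3 mg/kg range. Fatty acid and triglyceride synthesis genes were lower in 15 of 22 with a median of -0.08 and 1 in each direction at an unadjusted p under 0.05, beside 3.55% of all genes lower and 2.63% higher. These were Acacb, the mitochondrial acetyl-CoA carboxylase (-0.17 ± 0.078, dimmer than every array median), and Lpin2, a phosphatidate phosphatase (0.26 ± 0.11). Without replicate 1 of the 94.3 mg/kg group 4 members were lower at that level, and the count over all probe sets in either direction rose from 1685 to 2070.

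Genes of fasting and fat oxidation included a few that were higher at 943 mg/kg. Angptl4, a lipoprotein lipase inhibitor, ran from 8.86 to 9.67 (median 9.42) at 94.3 mg/kg and from 9.33 to 10.51 (median 9.76) at 943 mg/kg, a difference of 0.55 ± 0.21. Pdk4, which shuts pyruvate off from oxidation, differed by 0.50 ± 0.23, Pex11a, of peroxisome division, by 0.25 ± 0.092 with 5 of 6 animals above the 94.3 mg/kg range, and Crat, carnitine acetyltransferase, by 0.19 ± 0.071. These 4 were the members at an unadjusted p under 0.05, 2 of 19 PPARalpha and fasting genes and 2 of 11 Cyp4a and peroxisomal genes, beside 2.63% of all genes higher at that level. The medians of the lists were -0.009 and 0.02.

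Lists of xenobiotic enzymes had small medians, while single members such as Cyp3a9, and Ephx2 given further below, differed more. Cyp1a2, a target of the aryl hydrocarbon receptor, differed by 0.12 ± 0.058 at a level of 12.48 and 12.60, and 7 of 10 targets of that receptor were higher (median 0.08). Among 22 targets of CAR and PXR, the receptors behind phenobarbital and pregnane induction, the median was 0.02 and Cyp3a9 had the largest difference, 0.83 ± 0.36. Its animals ran from 6.71 to 7.85 at 94.3 mg/kg and from 6.53 to 9.26 at 943 mg/kg, with 5 of 6 above and 1 below the 94.3 mg/kg range. Cyp7a1, which catalyses the slowest step from cholesterol to bile acids, ran from 9.91 to 11.16 (median 10.82) and from 9.04 to 10.97 (median 10.07), a difference of -0.66 ± 0.27, while 9 of 15 bile acid genes were higher and their median was 0.02. Slc16a10, a carrier of aromatic amino acids and thyroid hormone, differed by 0.19 ± 0.076, and thyroid hormone genes had a median of 0.03.

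Of 14 p53 targets 3 were higher at an unadjusted p under 0.05, beside 2.63% of all genes: Sesn1, a sestrin that restrains mTORC1 (0.22 ± 0.068, 5 of 6 animals above the 94.3 mg/kg range), Bbc3, the apoptosis effector PUMA (0.24 ± 0.086), and Perp, a desmosomal protein (0.16 ± 0.062). The list median was -0.01, with 7 higher and 7 lower. Ccnd1, cyclin D1, differed by -0.36 ± 0.17, and 2 further probe sets gave -0.29 and -0.36. The 35 genes of cell cycle and mitosis had a median of -0.007. Npas2, a clock factor, differed by 0.27 ± 0.12 among 16 clock genes with a median of -0.004. Immediate early genes were higher in 15 of 20 with a median of 0.07. Klf10, an early TGF-beta response gene on that list, ran from 6.36 to 7.73 and from 6.57 to 8.56 and differed by 0.80 ± 0.28. Egr2 differed by 0.23 ± 0.098 at a level dimmer than every array median.

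Interferon response genes were lower in 27 of 28, with a median of -0.19, yet 0 had an unadjusted p under 0.05. The list mean ran from 5.86 to 7.09 at 94.3 mg/kg and from 5.75 to 7.00 at 943 mg/kg, so the spread between animals of 1 dose exceeded the difference between doses. Cxcl10, an interferon-induced chemokine, had the smallest p and differed by -0.34 ± 0.17. Without replicate 1 of the 94.3 mg/kg group, the lowest of its group, 8 of the 28 had an unadjusted p under 0.05. Leaving out the lowest animal of the higher group widens the difference by itself. In that setting the count over all 31042 probe sets also rose, from 1685 to 2070. Markers of Kupffer cells and macrophages were lower in 10 of 12 (median -0.12, 0 at an unadjusted p under 0.05), and their mean ran from 7.62 to 8.14 and from 7.50 to 8.09. Lyz2, a macrophage lysozyme, differed by -0.44 ± 0.23. The part of these cells in the interferon values was not tested.

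Markers of other cell types differed little. Over 10 marker lists with 116 measured genes, 2 had an unadjusted p under 0.05, 1 in each direction, beside 3.55% of all genes lower and 2.63% higher. Hnf4a, the master factor of hepatocytes, differed by -0.31 ± 0.095 on its brightest probe set and by -0.02 and -0.05 on its other 2. Cd8a, of cytotoxic lymphocytes, differed by 0.24 ± 0.10. The hepatocyte list median was 0.001. Endothelial markers were higher in 10 of 13 (median 0.04), lymphocyte markers in 7 of 17 (-0.04), neutrophil markers in 7 of 11 (0.11), cholangiocyte markers in 5 of 8 (0.05) and erythroid markers in 3 of 7 (-0.0002). Markers of stellate cells and fibroblasts were higher in 12 of 14 (median 0.07), with a mean from 6.49 to 6.97 at 94.3 mg/kg and from 6.73 to 7.24 at 943 mg/kg. They included Lum, lumican, which differed by 0.96 ± 0.49, and by 0.58 without replicate 4 of the 94.3 mg/kg group.

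Several of the largest differences rested on animals that stood far from the rest of their dose. Ephx2, soluble epoxide hydrolase, lay between 5.13 and 5.40 in all 6 animals at 94.3 mg/kg. At 943 mg/kg 4 animals lay between 8.46 and 9.52 and 2 lay at 5.55 and 5.56. All 6 therefore lay above the 94.3 mg/kg range, 2 of them by little, and the difference was 2.44 ± 0.58 (adjusted p = 0.688). Of the other groups vehicle reached 8.57, the 0.1 mg/kg group 8.65 and the 0.94 mg/kg group 8.46, while the 9.4 mg/kg group ended at 5.82, so high values occurred without a high dose.

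Ugt2b, a UDP-glucuronosyltransferase, lay between 12.27 and 12.73 at 94.3 mg/kg and between 12.14 and 12.87 in 5 animals at 943 mg/kg, while replicate 1 lay at 5.08. A low value also occurred in the 0.1 mg/kg group, whose lowest animal lay at 4.705. The difference of -1.11 ± 1.02 was 0.14 without replicate 1 of the 943 mg/kg group, and another probe set gave -0.64 ± 0.90. RT1-Ba, an MHC class II chain, showed the reverse, with replicate 4 of the 94.3 mg/kg group at 3.99 and the other 5 between 8.49 and 9.56. Its difference of 0.87 ± 0.71 was 0.03 without that animal, and another probe set gave -0.02. Ubd, an ubiquitin-like protein induced by interferon, ran from 7.45 to 8.94 at 94.3 mg/kg, and at 943 mg/kg 2 animals lay at 4.64 and 5.15 and 4 between 7.79 and 9.01 (-0.90 ± 0.64, and -0.38 without replicate 5). Low Ubd values also occurred in vehicle (lowest 4.70) and in the 0.1 and 9.4 mg/kg groups (lowest 4.63 and 4.14). Fgf21 ran from 5.21 to 8.66 and from 5.60 to 9.51, and its difference was 0.37 without replicate 3 of the 943 mg/kg group. Rec114, a meiotic protein, differed by -0.69 ± 0.35, and by -0.41 without that same animal.

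**Figure D5:**
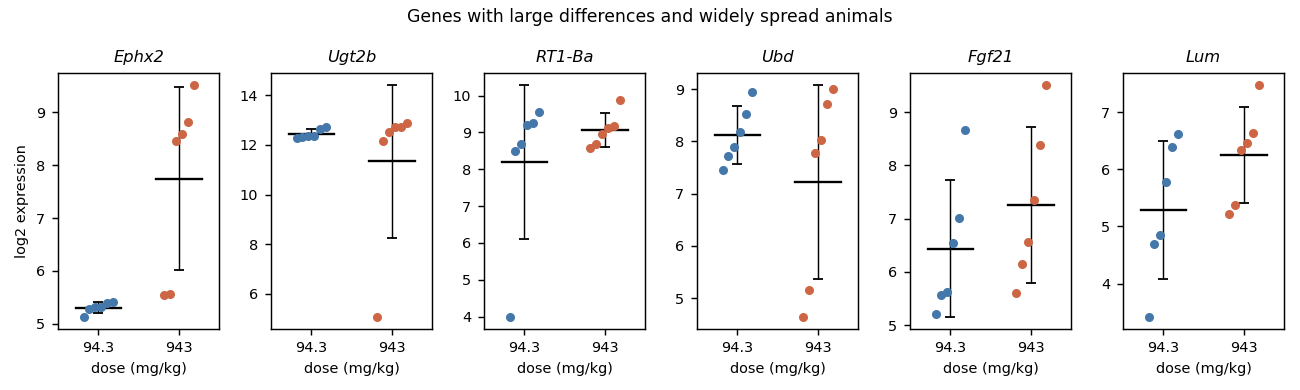
Log2 expression of 6 genes with large differences in each of 6 animals at 94.3 mg/kg (blue) and 943 mg/kg (orange), points ordered by value within a dose, with the mean (bar) and SD (whisker). For Ephx2 4 of 6 animals at 943 mg/kg lie above 8, for Ugt2b 1 animal at 943 mg/kg lies at 5.08, and for RT1-Ba 1 animal at 94.3 mg/kg lies at 3.99.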

How the data were processed

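Liver RNA of 36 animals was measured on Affymetrix rat arrays, and the 12 arrays of the 94.3 and 943 mg/kg groups were compared. Per the submitters' processing notes, the authors used RMA and affy, and the deposited values are on a log2 scale, as the values themselves show; no version of either is given in the sources. Quantile normalization within RMA sets all arrays to 1 distribution, so a shift of most genes in 1 direction could not be seen. The series' design text names a comparison of each dose with vehicle in R/maanova, which was not used.

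After 57 array controls were left out, 31042 probe sets were fitted with limma 3.58.1 in R 4.3.3 (lmFit and eBayes, no filter, no covariate, 6 against 6 animals), with two-sided p-values and Benjamini-Hochberg adjustment over all probe sets at 0.05. The script was tested on simulated data. Of the probe sets, 20826 name 1 gene, 436 several and 9780 none in the annotation used; 20758 matched a gene table by Entrez identifier and 0 symbols were updated. Where several probe sets name only the same gene, the brightest over the 12 arrays stands for it. P-values measure the spread between the animals' arrays.

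The members and gene lists (39 lists, 613 of 691 genes measured) were chosen with earlier results of these data known. They cover amino acid, stress, translation, lipid, xenobiotic, hormone, clock, cell cycle and immune genes and 10 cell type marker sets. The text names the 12 genes per direction with the smallest p, the 6 with the largest difference, up to 4 members per list by p, and all measured members of the serine and both cholesterol lists. Other names are said to be chosen after their values were seen, as extremes, by a promoter match or as parts of a complex. Promoters come from RefSeq (GRCr8), and 1 motif searched in them is not reported here. A level below every array median is called dim. Alternatives were all 36 arrays, the brighter probe sets, array weights, robust estimation with a variance trend, a replicate block, renormalization, centring, no moderation, 1 probe set per gene, another probe set, and leaving out each animal or the array with the lowest median correlation; the 7 families were added after the data were seen.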

Additional observations from a re-analysis of the deposited data

Results flagged for a closer look

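Among the 112 genes named, each in both dose groups, 8 of 224 groups of 6 animals held 1 animal whose gap to its nearest neighbour took up a larger part of the group's range than Dixon's 95% critical value for 6 animals, and chance gives this in about 1 in 20 groups. At 94.3 mg/kg, replicate 1 was lowest for Nsdhl (10.54) and Hnf4a (11.28), and replicate 4 was lowest for RT1-Ba (3.99) and Krt7 (2.899). At 943 mg/kg, replicate 1 was lowest for Ccl2 (4.06) and Ugt2b (5.08), replicate 2 for Bop1 (6.58) and replicate 4 for Eif4ebp1 (7.73).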

How the results depend on the processing

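Under every alternative run 0 probe sets passed between 943 and 94.3 mg/kg. The number at an unadjusted p under 0.05 was 1685, ran from 1529 to 2070 when 1 animal was left out, and was 962 in a fit of 1 probe set per gene, where fewer probe sets are tested. Leaving out replicate 1 of the 94.3 mg/kg group gave the 2070 and the smallest adjusted p, 0.0684. The labels give both groups replicate numbers 1 to 6, and with the number as a block 0 probe sets passed and 1707 had an unadjusted p under 0.05. The numbers did not pair the animals: deviations of same-numbered animals correlated between -0.11 and 0.125, 1 of 6 pairs over 0.1, and 0 of 6 animals at 943 mg/kg correlated best with its own number. Of the 112 genes named by rule, 94 kept their direction under every alternative, another probe set included where a gene has one, and 96 under every alternative but that. Ribosome biogenesis genes stayed lower in 32 of 32 and synthetases in 19 of 19 whichever animal was left out, with 17 to 25 and 9 to 14 of them at an unadjusted p under 0.05.

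With 1 animal left out the sign turned for Ugt2b and for 15 genes with small differences, with these lowest and highest values: Ugt2b -1.42 to 0.14, Shmt2 -0.0546 to 0.00855, Cth -0.0131 to 0.0743, Slc1a5 -0.0181 to 0.0502, Idi1 -0.24 to 0.0881, Fdps -0.15 to 0.0336, Acat2 -0.10 to 0.23, Mvk -0.0635 to 0.13, Sc5d -0.0256 to 0.12, Lss -0.24 to 0.0682, Msmo1 -0.20 to 0.0888, Nsdhl -0.12 to 0.00619, Dhcr7 -0.0683 to 0.14, Fdft1 -0.12 to 0.0414, Cyp51 -0.0643 to 0.11 and Hsd17b7 -0.19 to 0.11. The array with the lowest median correlation was replicate 1 of the 943 mg/kg group, and without it the values were Ugt2b 0.14, Acat2 -0.10, Mvk -0.058, Sc5d -0.0256, Dhcr7 -0.0683 and Cyp51 -0.0643. On the probe set with the second highest mean they were RT1-Ba -0.0188, Ggps1 -0.0405, Mvk -0.00895 and Sc5d -0.0189. The cause was not tested beyond what these settings leave out. For probe sets below the array medians the size of a difference is uncertain.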

Other observations

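Subunits of respiratory complex I, which passes electrons from NADH into the mitochondrial chain, were higher at 943 mg/kg in 30 of 34 genes, with a median of 0.04 and 0 at an unadjusted p under 0.05. Proteasome subunits were lower in 22 of 36 with a median of -0.02, 1 of them, Psmd4, at an unadjusted p under 0.05 (-0.13 ± 0.055), beside 3.55% of all genes. Growth hormone and sex-biased liver genes were higher in 17 of 25 (median 0.03). Gluconeogenesis and glucose genes were higher in 12 of 20 (median 0.06), with Ppargc1a, a coactivator of fasting metabolism, at 0.30 ± 0.15. Acute phase plasma proteins were lower in 15 of 21 (median -0.02), with Lcn2, lipocalin 2, at 0.42 ± 0.23 in the opposite direction. Urea cycle and amino acid catabolism genes were higher in 14 of 26 (median 0.01), with Tat, tyrosine aminotransferase, at -0.28 ± 0.14. None of these genes passed the limma test, and none but Psmd4 had an unadjusted p under 0.05.

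Among genes whose groups did not overlap, chosen after their values were seen, were Atic, a bifunctional enzyme of purine synthesis (-0.25 ± 0.066), and Sirt6, a nuclear deacylase (0.17 ± 0.051). Iron handling genes (11 measured, median 0.02) and MHC class II genes (10 measured, median 0.06) had 0 members at an unadjusted p under 0.05.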
